A study of Mus musculus with 8 samples.

Results

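Myc and 9 genes of ribosome assembly (Ncl, Npm1, Fbl, Nolc1, Nle1, Rrs1, Ppan, Bop1 and Polr1b) were followed through mouse CD4 T cells with and without the microRNA gene Mir-21. The genes were chosen by name, with earlier results of these data known. Every probe that carries one of these symbols, or an older name of it, was taken. Of the 10 genes, 8 had a probe, 11 probes in all, among the 25697 probes of 17916 symbols on the array. Fbl and Polr1b had no probe under these names. Rpa2, an older name of Polr1b, is the current symbol of another gene, so its 2 probes were not used.

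Messenger RNA was measured on 8 Illumina MouseRef-8 v2.0 beadchip arrays, on which each probe is read on many beads. Mesenteric lymph nodes of Mir-21 knockout mice and of their wild-type littermates were the source of the CD4+ T cells, which were sorted into a CD25High and a CD45High population, and were either left unstimulated or treated for 30 min with antibodies to CD3 and CD28, which engage the T cell receptor complex and its costimulatory receptor. Each of the 8 combinations of genotype, population and stimulation was measured on 1 array. The sources used here give neither the CD45 isoform of the sort, nor the age of the mice, nor how many mice a sample holds, and the labels name no Cre line or promoter that would limit the deletion to some cells. Arrays that differ in 1 factor only were taken as a pair, 4 pairs per factor, so the p-values measure the spread between these pairs and not between mice, and precision is limited by this small number of arrays.

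The sort was visible in its markers. Foxp3, the defining factor of regulatory T cells, was at log2 levels of 11.1 to 11.8 on the CD25High arrays and of 5.47 to 6.25 on the CD45High arrays, and all 6 CD4 T cell markers were detected on all 8 arrays. The early response gene Fos was at 10.02 to 10.36 on the unstimulated arrays and lower on each stimulated partner (8.74 to 10.12). Egr2 was at 8.09 to 8.66 on the unstimulated and at 8.72 to 9.16 on the stimulated arrays. Below, "at rest" means unstimulated by label only. Markers of other blood cells were present in part. Of the B cell markers 2 to 5 of 5 were detected per array, with a summed level of 722 to 1144 on the CD25High and 241 to 308 on the CD45High arrays. Of those of CD8 T and NK cells 2 to 3 of 5 were detected (sum 955 to 1430), of myeloid and dendritic cells 0 to 4 of 7 (144 to 621) and of erythroid cells 1 to 2 of 4 (217 to 700). Their defining genes Cd8a, Ncr1, Cd14, Itgam and Alas2 were detected on 0 arrays. The knockout CD25High stimulated array stood apart. It had 9208 detected probes against 9543 to 10477 on the others and a median correlation across probes of 0.888 with the other arrays, against 0.938 to 0.965. It also had the lowest summed level of heat shock and handling genes (2068 against 4758 to 9364) and the highest of B cell and erythroid markers. The main results that rest on this array are therefore given with and without it.

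Myc is a transcription factor that pairs with Max and binds E-box motifs, whose core is CACGTG, with CACGCG among its variants. Resting lymphocytes hold little Myc RNA, and signals from the antigen receptor raise it early, before the cells grow. Among the genes it activates are those that build ribosomes: RNA polymerase I transcribes the ribosomal RNA in the nucleolus, small nucleolar RNPs modify it, and assembly factors fold it with ribosomal proteins into the small and the large subunit.

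The deleted gene gives 2 mature microRNAs, shown here because their absence defines the knockout. They lie on the minus strand of chromosome 11 (GRCm38.p6, RefSeq), miR-21a-5p at chr11:86584120-86584141 and miR-21a-3p at chr11:86584082-86584103. The capitals mark the seed, bases 2 to 8, with which a microRNA pairs to its targets, and the 2 seeds differ.
mmu-miR-21a-5p: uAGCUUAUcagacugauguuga
mmu-miR-21a-3p: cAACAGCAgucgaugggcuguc

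E-box letters were looked for in the RefSeq promoter windows of the genes, 250 bases before to 50 after the start, on both strands. A window was in the table for 5 of the 10 genes. The motif CACGTG, which reads the same on both strands, was in 1 of them (Nle1) and in 7.15% of all 32851 promoters. The motif CACGCG, which on the other strand reads CGCGTG, was in 2 (Nolc1 and Ppan) and in 9.27% of all promoters. The motifs share the letters CACG, and none of the windows of these genes held both. The windows of Ncl and Polr1b held neither string of letters. The 3 matches are shown in 30 bases each, with the motif in capitals, since the data of Nle1, Ppan and Nolc1 are given below. They lie at chr11:82908355-82908384 on the minus strand for Nle1, with the motif starting at base 24 after the start, at chr9:20888172-20888201 on the plus strand for Ppan, starting at base 10, and at chr19:46075810-46075839 on the plus strand for Nolc1, starting 25 bases before the start. A match describes the letters only, and no binding was measured.
Nle1: tcggttctcctcCACGTGgggacgcaggat
Ppan: agagttacgagcCGCGTGgcaccggaagtt
Nolc1: gcaggatgatgaCGCGTGtgggaccggaag

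A probe was called detected on an array at a detection p under 0.01, which sets its signal against negative control probes, and was tested if detected on at least 2 of the 8 arrays. Of the 11 probes, 8 passed, of 7 genes: Myc, Ncl with 2 probes, Npm1, Nolc1, Nle1, Ppan and Bop1. Not detected on any array were the other Myc probe (ILMN_1231123), the other Nle1 probe (ILMN_2712419) and the only probe of Rrs1 (ILMN_2628848), an assembly factor known from yeast to bring the 5S RNA particle into the large subunit. Their intensities, 88.7 to 105.6 in all, lay around the median of undetected probes of each array (94.1 to 101.2), so Rrs1 gave no measurement, and Myc and Nle1 rest on 1 probe each.

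Myc differed most between arrays among these genes. Its log2 level (normalized, as in all values below that are called levels) was 5.61 in wild-type and 5.38 in knockout unstimulated CD25High cells, and 5.20 and 5.11 in wild-type and knockout unstimulated CD45High cells. After stimulation it was 7.31 in wild-type CD25High, 6.13 in wild-type CD45High and 5.80 in knockout CD45High cells, but 4.41 and not detected in knockout CD25High cells. The order of levels thus put the wild-type CD25High stimulated array highest and the knockout array of the same population and treatment lowest. The 4 unstimulated arrays were close, spanning 5.11 to 5.61.

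The highest and the lowest array were the same in the deposited intensities, which are not normalized between arrays. Myc was read at 240.0 with a bead SE of 7.56 on the wild-type CD25High stimulated array, and at 104.9 with a bead SE of 2.30 on the knockout one, where the median of undetected probes was 100.9. The bead SE measures the spread of beads within 1 array and not between samples, whose spread within a combination was not measured.

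**Figure D1:**
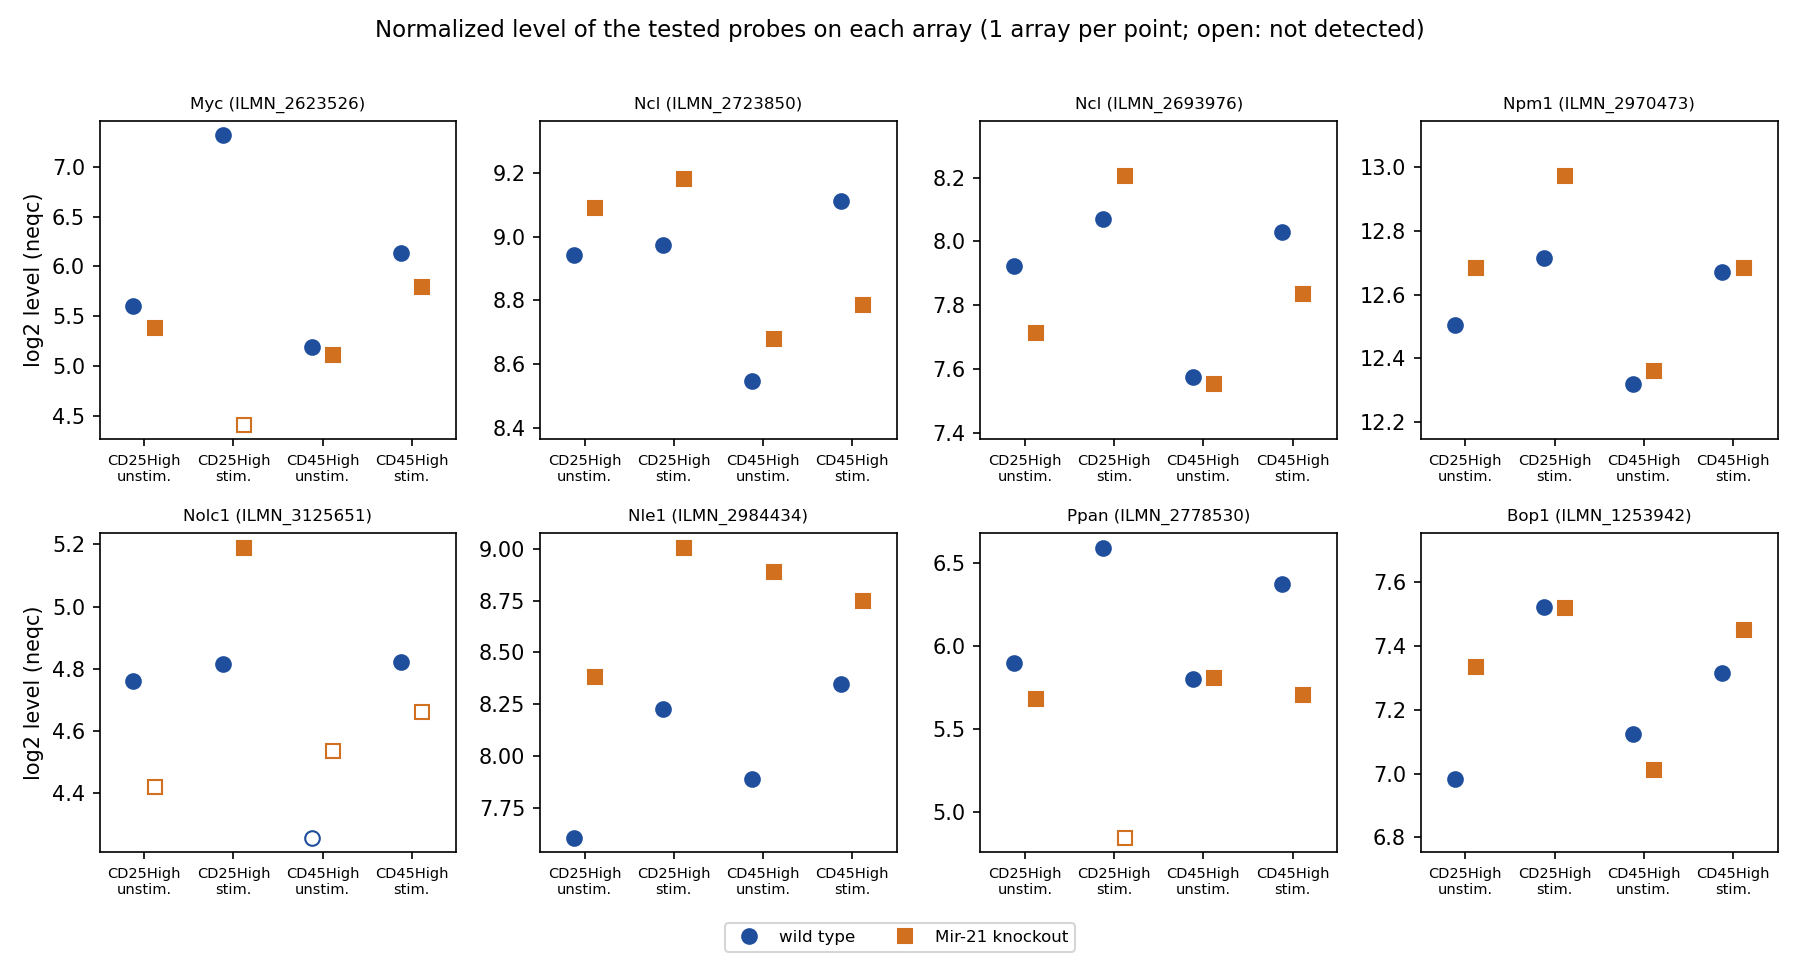
Normalized log2 level of each tested probe (y axis, own scale per panel) on each of the 8 arrays (x axis: population and stimulation), with wild type as blue circles, knockout as orange squares and open symbols for arrays on which the probe was not detected. Myc and Ppan are lowest on the knockout CD25High stimulated array, at 4.41 and 4.84, and the 4 knockout arrays of Nle1 all lie above the 4 wild-type arrays.

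Ncl, Npm1 and Nolc1 are proteins of the nucleolus. Nucleolin (Ncl) acts in transcription and early processing of ribosomal RNA. Its probe ILMN_2723850 had levels of 8.94, 9.09, 8.55 and 8.68 on the unstimulated arrays (wild-type and knockout CD25High, then wild-type and knockout CD45High) and of 8.97, 9.18, 9.11 and 8.79 on the stimulated ones in the same order. Its other probe, ILMN_2693976, had 7.92, 7.71, 7.57 and 7.55 unstimulated and 8.07, 8.20, 8.03 and 7.84 stimulated. The stimulated and unstimulated arrays overlapped for both, and a stimulated array was highest for each.

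Nucleophosmin (Npm1), a chaperone of histones and ribosomal proteins, varied little, between 12.32 and 12.97. It was at 12.51, 12.68, 12.32 and 12.36 on the unstimulated and at 12.72, 12.97, 12.67 and 12.68 on the stimulated arrays, in the same order. Each stimulated array lay above its unstimulated partner. Nolc1, a scaffold that binds small nucleolar RNPs, was near the detection limit, with levels of 4.26 to 5.19 and detection on 4 arrays: wild-type CD25High with and without stimulation, wild-type CD45High stimulated and knockout CD25High stimulated.

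Nle1, Ppan and Bop1 act on the large subunit. Nle1, known from its yeast relative as a partner of the remodelling ATPase Mdn1, was at 7.61, 7.89, 8.22 and 8.35 on the wild-type arrays (CD25High and CD45High unstimulated, then CD25High and CD45High stimulated) and at 8.38, 8.89, 9.005 and 8.75 on the knockout arrays in that order. The lowest knockout array was just above the highest wild-type one. Ppan, known from its yeast relative as a factor of early large subunit particles, ranged from 4.84, not detected, on the knockout CD25High stimulated array to 6.59 on the wild-type array of the same population and treatment. On its other arrays it was at 5.68 to 6.37, with the wild-type CD45High stimulated array highest of these. Bop1, which forms a complex with Pes1 and Wdr12, stayed between 6.98 and 7.52, and its 3 lowest values were on unstimulated arrays.

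**Figure D2:**
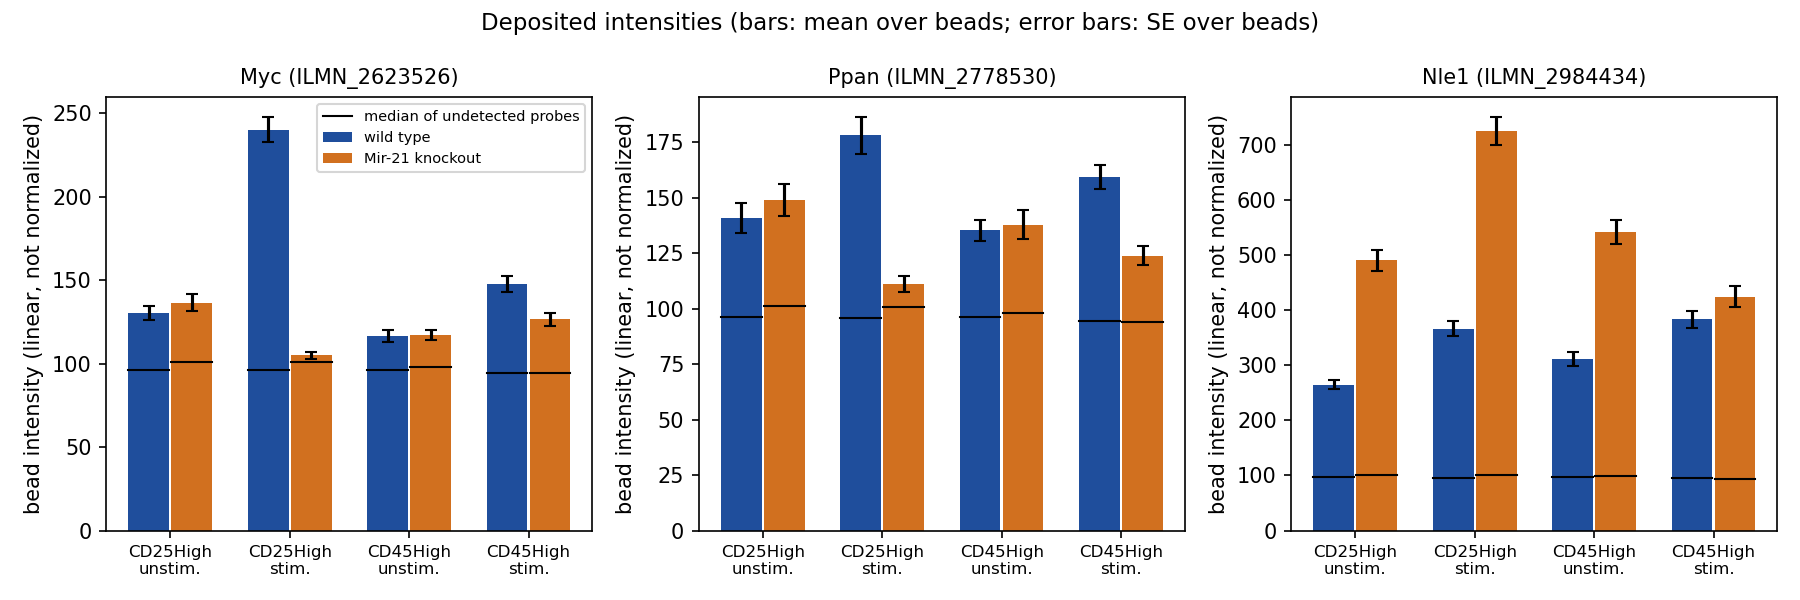
Deposited bead intensity (y axis, linear from 0, not normalized between arrays) of Myc, Ppan and Nle1 on the 8 arrays, as the mean over beads with the SE over beads, beside the median of undetected probes (black lines). Myc at 104.9 and Ppan at 111.2 come close to that median (100.9) on the knockout CD25High stimulated array, on which Nle1 has its highest intensity, 724.5.

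The first comparison asks how the genes differ 30 min after receptor stimulation. All 7 genes tested had a mean stimulated minus unstimulated difference above 0 over the 4 pairs, with a median of 0.34 (brightest probe per gene) against -0.002 over all probes tested, of which 49.8% were above 0. None of the 8 probes passed the test, in which 16% of the 11047 probes were called (adjusted p under 0.05 by limma with the pair as a block). At an unadjusted p under 0.05 there were 3 of the 8, near the share of all probes, 34.3%.

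For Myc the stimulated minus unstimulated difference was 1.71 in wild-type CD25High, 0.94 in wild-type CD45High and 0.69 in knockout CD45High cells, and -0.97 in knockout CD25High cells, where it was at least 1.29-fold lower after stimulation. In that last value the undetected level was raised to the lowest level of a detected probe on the array (5.02), as for all values given as "at least". The mean was 0.59 ± 1.13 (SD, n = 4 pairs; SE of the fit 0.40, adjusted p = 0.33). When the knockout CD25High pair was left out the mean was 1.11 (SE 0.20, adjusted p = 0.00966, n = 3 pairs), the only probe of these genes to pass there, where 22.8% of all probes did.

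Bop1, Npm1 and both Ncl probes were above 0 in all 4 pairs, as were 21.9% of all probes tested. Nolc1 was above 0 in all of them only with its undetected levels as measured. None of the 8 was below 0 in all 4 pairs, as were 21.8%. For none of the 8 did the stimulated arrays all lie above (11.5% of all probes) or all below (9.5%) the unstimulated ones. The signs of Nolc1 rest in part on undetected levels: it was detected on neither array of the knockout CD45High pair and on only the stimulated array of the knockout CD25High and wild-type CD45High pairs. Bop1 had pair differences of 0.54 and 0.19 in wild-type and knockout CD25High cells and of 0.19 and 0.44 in CD45High cells (mean 0.34 ± 0.18, SD, n = 4 pairs; SE 0.13, adjusted p = 0.12). Npm1 had the closest pairs, 0.21 to 0.35 (mean 0.29 ± 0.06; SE 0.11, adjusted p = 0.13). These differences amount to 1.27-fold for Bop1 and 1.23-fold for Npm1.

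The Ncl probes had mean differences of 0.34 (ILMN_2693976, SE 0.12, adjusted p = 0.11) and 0.20 (ILMN_2723850, SE 0.14, adjusted p = 0.35), and Nolc1, with its undetected levels as measured, of 0.38 (SE 0.16, adjusted p = 0.15). Nle1 was above 0 in 3 of 4 pairs, with -0.14 in knockout CD45High cells and 0.46 to 0.62 in the others (mean 0.39, SE 0.17, adjusted p = 0.15). Ppan split by genotype: it had 0.69 and 0.57 in wild-type CD25High and CD45High cells, and -0.84 (at least 1.59-fold lower) and -0.10 in the knockout ones (mean 0.08, SE 0.26, adjusted p = 0.85). Without the knockout CD25High pair its mean was 0.39 (SE 0.18, adjusted p = 0.16), and with either wild-type pair left out it was below 0. In the 3 pairs without the knockout CD25High pair, 6 of the 8 probes were above 0 in each pair, as were 28.8% of all probes tested. Nolc1 is among the 6 only with its undetected levels as measured.

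**Figure D3:**
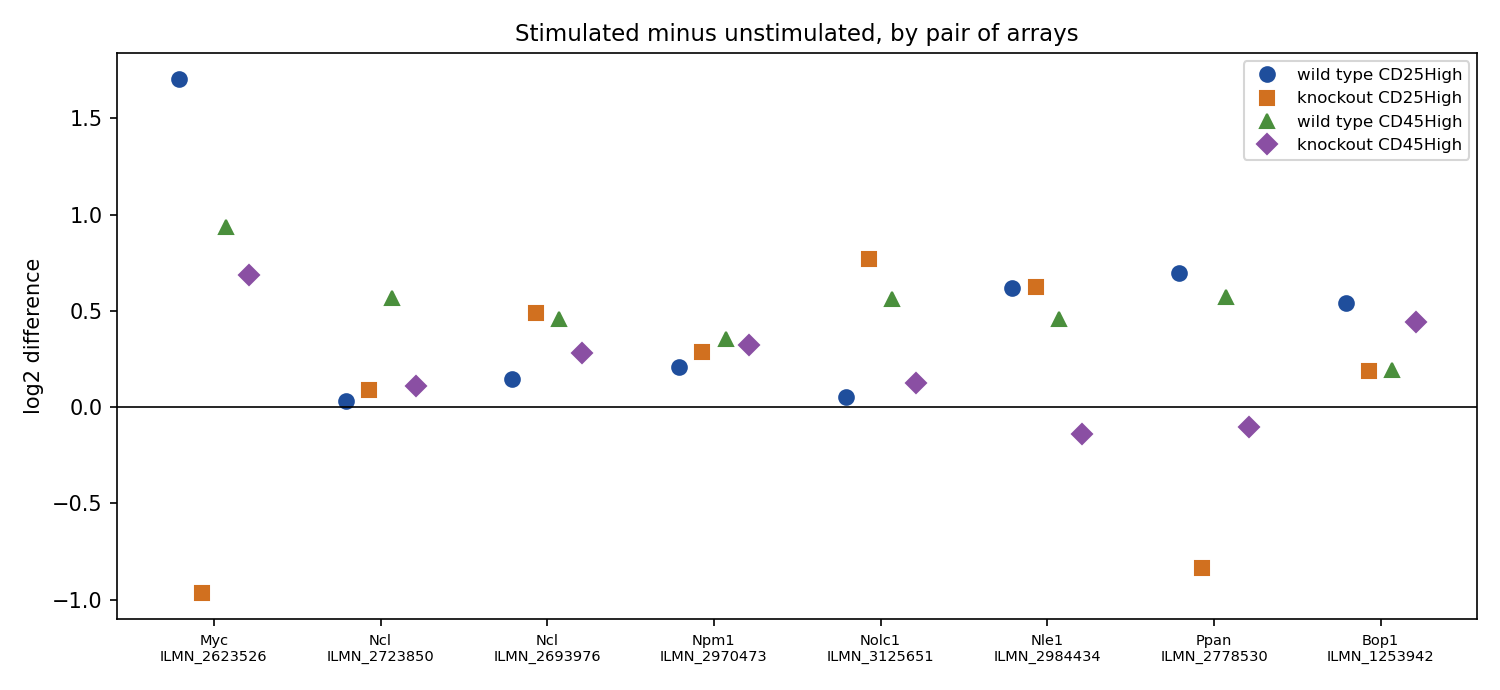
Stimulated minus unstimulated log2 difference (y axis) of each tested probe (x axis) in the 4 pairs of arrays, each pair with its own symbol. Myc spans -0.97 in knockout CD25High to 1.71 in wild-type CD25High cells, while the 4 values of Npm1 lie between 0.21 and 0.35.

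Within CD25High cells no probe of these genes was called, where 14.1% of all probes were, and Nle1 had the lowest p-value (0.62, SE 0.20, adjusted p = 0.094). Myc and Ppan were above 0 in the wild-type and below 0 in the knockout CD25High pair, as were 13.7% of all probes. With only the wild-type CD25High pair kept, Myc was called (1.71, SE 0.23, adjusted p = 5.72e-05, 22.7% of all probes called). With only the knockout one kept, Myc (-0.97, adjusted p = 0.00393), Ppan (-0.84, adjusted p = 0.0176) and Nolc1 were called, where 35.9% of all probes were. A fit that keeps only 1 of these pairs assumes that it varies like the CD45High pairs. Over all probes tested the SD of the differences was 0.65 and 0.86 in the wild-type and knockout CD25High pairs. In the wild-type and knockout CD45High pairs it was lower, at 0.46 and 0.53. Within CD45High cells none was called either, against 0.941% of all probes, and the mean for Myc was 0.81 (SE 0.58, adjusted p = 0.51). The shared error of that fit includes the CD25High pairs. Without the knockout, or without the wild-type, CD25High pair the same Myc difference of 0.81 had an SE of 0.16 (adjusted p = 0.00199, against 22.2% of all probes called), on an error from the 2 CD45High pairs alone. The stimulation difference did not pass a test between the populations for any of these probes (limma, 0% of all probes called, 1047 of them at an unadjusted p under 0.05), with -0.44 for Myc (CD25High minus CD45High, SE 0.82).

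Among the other genes of the pathway, listed by role and without the genes above, more rose than fell with stimulation. All pathway lists were drawn up with earlier results of these data known, so their counts are a description. Of 107 tested genes of ribosome assembly in 4 lists, 30 rose and 1 fell over the 4 pairs, against 8.7% of all 8106 genes called higher and 8.43% called lower. Their median difference was 0.41, with 95 of 107 above 0, against 0.02 over all genes. In these bulk samples less RNA per cell and fewer cells of a type cannot be told apart. The count was 34 higher and 1 lower without the knockout CD25High pair, but 0 without the wild-type CD25High pair, 6 without the wild-type CD45High pair and 0 without the knockout CD45High pair, where 0, 740 and 80 of all probes were called. The median was 0.34 to 0.46 with any 1 pair left out. Within CD25High cells 21 of the 107 rose and 0 fell (median 0.51), against 7.99% and 6.5% of all genes. Without the knockout CD25High pair 25 rose and 1 fell, against 11.2% and 12.3% of all genes. Within CD45High cells 0 were called (median 0.31, 96 above 0), against 0.814% and 0.296% of all genes. The difference between these responses was not called for any of them (limma).

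In the large subunit list 14 of 43 genes rose and none fell (median 0.43). They include Nop2, an rRNA methyltransferase (1.14, SE 0.20, adjusted p = 0.0181), Ftsj3, also an rRNA methyltransferase (0.94, SE 0.14, adjusted p = 0.0130), Gnl2, a GTPase (0.86), and Urb2 (0.86). In the small subunit list 10 of 37 rose and none fell (median 0.42), among them Rcl1, known from yeast to be needed for cleavage of the precursor RNA (1.09, SE 0.13, adjusted p = 0.00765), Utp4 (0.94), Tbl3 (0.77) and Heatr1 (0.67), all 3 subunits of the early small subunit processome. Of 13 genes of the snoRNP core and nucleolar scaffold 4 rose (median 0.33): the snoRNP assembly factor Shq1 (0.66), the core protein Nop58 (0.56) and the ATPases Ruvbl1 (0.56) and Ruvbl2 (0.54), which also serve other complexes.

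In the list of RNA polymerase I and its factors 2 of 14 genes were called higher and 1 lower. Of all genes 8.7% were called higher and 8.43% lower. Cd3eap (0.88, SE 0.13) and Polr1c (0.70, SE 0.12), both polymerase subunits, rose. Ubtf, which binds ribosomal DNA for transcription by the polymerase, fell by 0.58 (SE 0.14, adjusted p = 0.0415 by limma). Without the knockout CD25High pair 4 were called higher and 1 lower, against 11.2% and 12.6% of all genes. Without the wild-type CD25High, wild-type CD45High and knockout CD45High pairs in turn 0, 2 and 0 were called higher, and 0 lower each time. The list's median was 0.23.

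Genes described as activated by Myc in growth had 11 of 26 called higher and 0 lower (median 0.38), against 8.7% and 8.43% of all genes. The largest differences were those of Odc1 (2.16, SE 0.13, adjusted p = 0.00359) and Srm (1.09, SE 0.20), which make polyamines, Tfrc, the transferrin receptor (0.96, SE 0.12), and Apex1, a DNA repair enzyme (0.90, SE 0.15). Odc1 was also called within CD25High cells (2.06, adjusted p = 0.00644) and within CD45High cells (2.25, adjusted p = 0.0260). Among 13 factors of the Myc network 2 rose and 2 fell (median -0.03), against the same 8.7% and 8.43% of all genes. So few genes do not set this list apart from all genes. Zbtb17, a partner through which Myc represses (0.49), and Skp2, a ubiquitin ligase subunit that acts on Myc (0.49), rose. Mxd4, which competes with Myc for Max, fell by 1.20 (SE 0.29, adjusted p = 0.0384), and Mycbp2, a ubiquitin ligase that binds Myc, fell by 0.57. Without the knockout CD25High pair the counts were 14 higher and 1 lower of the 26, and 2 and 2 of the 13, against 11.2% higher and 12.6% lower of all genes. Without the wild-type CD25High, wild-type CD45High and knockout CD45High pairs in turn 0, 3 and 2 of the 26 were called higher, as were 0%, 3.81% and 0.642% of all genes.

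**Figure D4:**
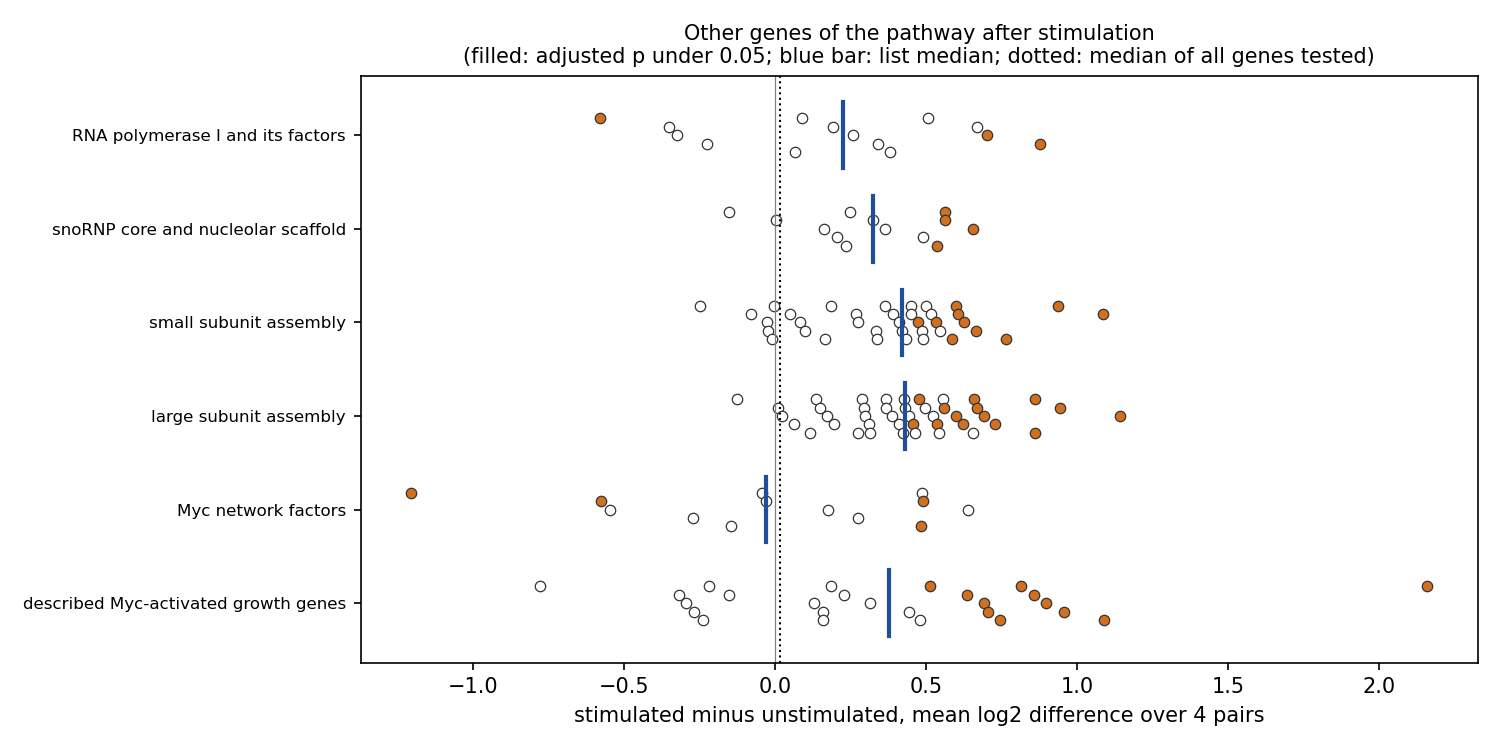
Mean stimulated minus unstimulated log2 difference over 4 pairs (x axis) of every tested gene of the 6 pathway lists (y axis), with filled points for an adjusted p under 0.05 (limma), a blue bar at the list's median and a dotted line at the median of all genes. The medians of the 2 subunit assembly lists are 0.42 and 0.43, and that of the Myc network factors is -0.03.

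Other lists also had medians away from 0 in the same comparison, and their part in these results was not tested. All 6 CD4 T cell markers had a mean difference below 0 after stimulation (median -0.49, 0 called over the 4 pairs). Within CD25High cells 3 of the 6 were called lower (median -0.92), as were 6.5% of all genes. Within CD45High cells 0 were called (median -0.15, 2 above 0). The 4 heat shock and handling genes measured had a median of -0.50 with 1 above 0. The summed level of CD4 T cell markers was 11349 and 15536 on the CD25High stimulated arrays, against 22176 to 24142 on the other 6.

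The second comparison sets CD25High against CD45High cells. No probe of the 8 was called over the 4 pairs, where 8.29% of all probes were, nor at rest (2.38% of all) or after stimulation (6.83%). Npm1 and the Ncl probe ILMN_2693976 were higher in CD25High cells in all 4 pairs, as were 16.7% of all probes, by 0.21 (SE 0.12, adjusted p = 0.32) and 0.23 (SE 0.12, adjusted p = 0.30). None was lower in all 4 pairs, as were 19% of all probes, and no probe of the 8 had all its CD25High arrays above (6.72% of all probes) or below (5.58%) the CD45High ones. For Myc the CD25High minus CD45High difference was 0.41 and 0.27 in wild-type and knockout cells at rest, 1.18 in wild-type cells after stimulation, and -1.38 (at least 1.72-fold lower) in knockout cells after stimulation. Without this last pair the mean for Myc was 0.62 (SE 0.19, adjusted p = 0.084). With all arrays it was 0.12 (SE 0.39, adjusted p = 0.87).

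Nle1 was lower in CD25High cells in 3 of 4 pairs (mean -0.16, SE 0.16, adjusted p = 0.55), and the means of Ppan, Bop1 and Nolc1 lay between -0.17 and 0.23. In the pathway lists, Tfrc (0.70) and Odc1 (0.61) were called higher in CD25High cells, and Usp28, a deubiquitinase that acts on Myc, was called lower (-0.72), against 6.18% and 2.76% of all genes. None of the 107 other assembly genes was called (median 0.04, against -0.01 over all genes). The outermost values were 0.46 for Ftsj3, 0.44 for Ebna1bp2, -0.34 for Rrp1 and -0.62 for Las1l among large subunit genes, and 0.32 for Tbl3, 0.30 for Wdr3, -0.36 for Tsr3 and -0.47 for Ddx49 among small subunit genes. In the snoRNP list they were 0.54 for Ruvbl1, 0.29 for Nop58, -0.31 for Nop56 and -0.36 for Nop10, and in the polymerase list 0.28 for Ubtf, 0.20 for Polr1c, -0.45 for Polr2h and -0.52 for Taf1c (adjusted p = 0.069 for Ruvbl1 and 0.11 to 0.65 for the others). Of the markers of other cells, 3 of 5 for B cells, 1 of 3 for myeloid and dendritic cells and 1 of 3 for CD8 T and NK cells were called higher in CD25High cells too, and their part was not tested. Without the stimulated knockout pair 0 assembly genes were called higher and 2 lower, both of the polymerase list, against 7.51% and 5.23% of all genes. The median over the 107 genes was then -0.03, as over all genes, and 4 of the 26 genes activated by Myc were called higher. Nop56 was then at 0.22 in place of -0.31 and Ddx49 at 0.0004 in place of -0.47. The other outermost values above were nearer 0 too, such as -0.27 for Las1l, 0.22 for Ftsj3 and -0.20 for Polr2h. The exceptions were Tsr3 (-0.45) and Nop10 (-0.40).

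The third comparison sets knockout against wild type. No probe on the array passed over the 4 pairs, so percent called was 0%, with 1083 of 11047 probes at an unadjusted p under 0.05 by limma, 1 of them among these genes, Nle1. The median of the 7 genes was 0.04, the same as over all probes.

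Nle1 was higher in knockout in every pair: by 0.78 in CD25High and 1.00 in CD45High cells at rest, and by 0.78 and 0.40 after stimulation. The mean was 0.74 ± 0.25 (SD, n = 4 pairs; SE 0.13), a 1.67-fold difference, with an unadjusted p of 0.00116 by limma, rank 11 among all probes, and an adjusted p of 0.493. Its 4 knockout arrays all lay above its 4 wild-type arrays, as for 1.36% of all probes, and no probe of the 8 had them all below, as for 1.63%. Its lowest pair value, 0.40, was reached in all 4 pairs by 13 probes, itself included, or 0.118% of those tested, which describes its rank and is no test. The intensities, before normalization, were 264.7, 310.5, 366.2 and 383.1 on the wild-type arrays and 490.0, 541.3, 724.5 and 424.3 on the knockout arrays in the same order. Nle1 lies on the same chromosome as the deleted gene (promoter match at chr11:82908355-82908384, miR-21a-5p at chr11:86584120-86584141). The part of DNA linked to the deleted gene in this difference was not tested.

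By population and state, the Nle1 difference was 0.78 in CD25High cells (SE 0.20, adjusted p = 0.29) and 0.70 in CD45High cells (SE 0.20, adjusted p = 1). It was 0.89 at rest (SE 0.18, adjusted p = 1) and 0.59 after stimulation (SE 0.18, adjusted p = 0.35). In each of these 4 fits 0% of all probes were called, with 1797, 139, 231 and 1580 at an unadjusted p under 0.05. When either stimulated pair was left out, the difference at rest passed (0.89, SE 0.13, adjusted p = 0.0430, with 0.371% of all probes called), on an error from the 2 unstimulated pairs alone. Its difference did not pass a test between states (-0.30 stimulated minus unstimulated, SE 0.25) or between populations (0.08, SE 0.29), where 0% of all probes were called and 404 and 398 had an unadjusted p under 0.05.

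**Figure D5:**
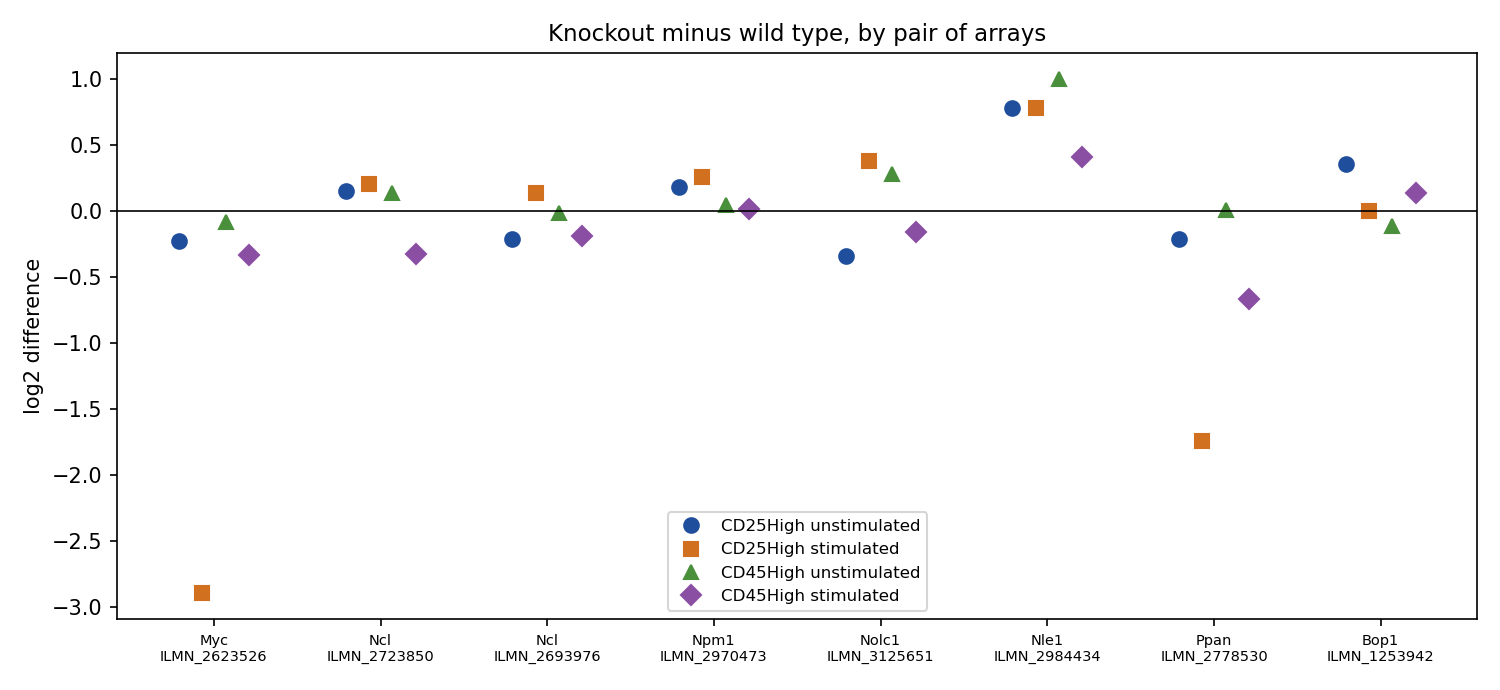
Knockout minus wild-type log2 difference (y axis) of each tested probe (x axis) in the 4 pairs of arrays, each pair with its own symbol. Nle1 lies between 0.40 and 1.00 in all pairs, and Myc and Ppan have -2.90 and -1.74 in the CD25High stimulated pair.

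Myc was lower in knockout in every pair, as were 10.1% of all probes. The differences were -0.23 and -0.09 in CD25High and CD45High cells at rest, -0.34 in stimulated CD45High cells and -2.90 in stimulated CD25High cells, where Myc was at least 4.92-fold lower. The mean was -0.89 ± 1.35 (SD, n = 4 pairs; SE 0.48, adjusted p = 0.50). Most of it came from 1 pair, whose wild-type array was the highest and whose knockout array was the lowest of the 8. In the CD25High stimulated pair all probes had an SD of 0.82 and a median of 0.14, against SDs of 0.23 to 0.30 in the other pairs, and 1.28% of all probes had a lower value than Myc. Without the CD25High stimulated pair the difference was -0.34 after stimulation (SE 0.18, adjusted p = 0.47) and -0.23 in CD25High cells (SE 0.23, adjusted p = 0.92), each from 1 pair assumed to vary like the others. In the CD25High stimulated pair Ppan was below 0 too (-1.74), while Nle1 was above 0 (0.78).

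Ppan had the same pattern in the stimulated cells. It was at -1.74 in the CD25High stimulated pair (at least 2.97-fold lower) and at -0.67 in the CD45High stimulated pair, a value below which 1.72% of all probes lay, but at -0.21 and 0.01 at rest. The mean after stimulation was -1.21 (SE 0.28, adjusted p = 0.35), and the stimulated minus unstimulated genotype difference was -1.10 (SE 0.40, adjusted p = 0.86), against -1.46 for Myc (SE 0.83, adjusted p = 0.86). Without the CD25High stimulated pair these were -0.57 for Ppan (SE 0.23, adjusted p = 0.50) and -0.18 for Myc (SE 0.23, adjusted p = 0.84). On the knockout CD25High stimulated array the heat shock genes were lowest and the B cell and erythroid markers highest. Myeloid and dendritic markers had a median genotype difference of -2.05 after stimulation, with 0 of 3 above 0 (S100a8 -2.05, adjusted p = 0.35, and Lyz2 -2.37, adjusted p = 0.35). The part of these lists was not tested.

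The remaining genes had smaller genotype differences, none of them called. Npm1 was above 0 in all 4 pairs, as were 13.5% of all probes, with 0.01 to 0.26 (mean 0.12, SE 0.11, adjusted p = 0.62). Bop1 had a mean of 0.09 (SE 0.12), Nolc1 of 0.04 (SE 0.15) and the Ncl probes of 0.04 (ILMN_2723850, SE 0.13) and -0.07 (ILMN_2693976, SE 0.11). The 107 other assembly genes had a median of -0.04 with 45 above 0, against 0.06 over all genes, and none was called. The outermost values in the small subunit list were -0.81 for Krr1, -0.77 for Ddx49, 0.38 for Emg1 and 0.38 for Tbl3, and in the large subunit list -0.52 for Las1l, -0.33 for Rrp1b, 0.35 for Nmd3 and 0.26 for Pelp1. In the snoRNP list they were -0.74 for Nop56, -0.52 for Znhit6, 0.07 for Shq1 and 0.05 for Ruvbl1, and in the polymerase list -0.53 for Polr2h, -0.48 for Polr2e, 0.27 for Polr1c and 0.24 for Rrn3.

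In the Myc network, Max, the partner of Myc, had a genotype difference of -0.94 ± 0.78 and was below 0 in all 4 pairs, as were 10.1% of all probes. Mlx, a relative of Max, had 0.56 ± 0.19 and was above 0 in all 4, as were 13.5% (SD, n = 4 pairs, adjusted p = 0.49 each by limma). Both were picked as outermost values of their list, so like signs are partly built in. Skp2 had 0.40 and Mxd4 -0.23. Among genes described as activated by Myc the values were -1.14 for Umps and -0.59 for Cad, enzymes of pyrimidine synthesis, 0.39 for Rcc1 and 0.34 for Nampt. None of these was called, with adjusted p from 0.49 to 0.88. Without the CD25High stimulated pair, which holds the array that stood apart, these 6 were closer to 0: -0.58 for Max, -0.41 for Umps, -0.14 for Cad, -0.55 for Krr1, -0.30 for Ddx49 and -0.12 for Nop56. The other genes named for genotype from the lists then lay between -0.45 (Znhit6) and 0.48 (Mlx). The median of the 107 assembly genes was then -0.06 with 29 above 0, against 0.02 over all genes, and none was called. The heat shock and handling genes had a genotype median of -0.44 with 1 of 4 above 0, and their part was not tested.

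The genes did not all vary together. Over the 8 arrays Myc correlated with Ppan at 0.90, and at 0.88 without the knockout CD25High stimulated array. With Npm1, Nolc1, Bop1 and the Ncl probes it correlated at -0.002 to 0.28 over all arrays and at 0.48 to 0.85 without that array, and with Nle1 at -0.35 and -0.08. Npm1, Nolc1 and the Ncl probes correlated with each other at 0.71 to 0.92 over all arrays and at 0.60 to 0.89 without that array. These are Pearson correlations over 8 arrays that share treatments, sorts and genotypes, given as a description.

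The probes most like Myc over the 8 arrays were those of Gpatch3 (0.974), Nhp2, a core protein of the H/ACA snoRNPs (Nola2 in the file, 0.973), Bcl2l1, an inhibitor of cell death (0.973), Cdkn1a, an inhibitor of cell cycle kinases (0.969), and Lrrc41 (0.968). Over the 7 arrays without the knockout CD25High stimulated one these values were 0.971 to 0.999. Most like the mean of the other genes were Cnih4 (0.986), LOC100047155 (0.974), Ubp1 (0.967), Vps16 (0.965) and Caprin1 (0.965), and these were at 0.958 to 0.993 over the 7 arrays. Both sets were picked as the highest correlations among all probes tested over the 8 arrays. High values over 7 of the same arrays are therefore partly built in, and are no test.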

How the data were processed

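Per the file headers, each probe has in the deposited, non-normalized table a mean intensity over its beads (linear scale), the standard error over beads (a score here), the bead count and a detection p-value. The authors also deposited log2 values of 14533 probes, selected by a detection p under 0.05 on any array. They differ from the values computed here by at most 0.0626 and served as an alternative. The submitters' processing notes name limma with no version.

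Log2 levels were computed with neqc of limma 3.58.1 (R 4.3.3), which estimates background by normexp with the help of the detection p-values, adds an offset of 16 and normalizes by quantiles. Tested were the 11047 probes (8106 genes) detected, at a p under 0.01, on 2 or more of the 8 arrays. The tests used lmFit and eBayes, with Benjamini-Hochberg adjustment across all these probes, and a call is an adjusted p under 0.05. Each pair of matched combinations was a block. That pairing rests on the factorial labels and on no shared animal. Residual degrees of freedom were 3 over all pairs and 2 with separate effects. With a pair left out both numbers were lower still. The scripts were tested on simulated data. Lists use the brightest tested probe of a gene.

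Symbols were matched to RefSeq names of GRCm38.p6, 20736 as current and 3841 as older symbols, with 1120 unmatched. Arrays had a median of 38 to 40 beads per probe and a median bead SE of 2.42 to 2.74% of the signal. Every probe of the 10 genes is reported. Of each pathway list up to 4 called genes per direction are named over all pairs, or, where none was called, its 2 largest and 2 smallest values. The probes most like Myc, and most like the mean of the other genes, are the 5 with the highest correlation. The members and lists were chosen with earlier results of these data known. Alternatives were other background corrections, normalizations, filters, probe averaging and variance models, array weights, no block, and each pair left out, and the count for other assembly genes and the values of lists and correlations without the knockout CD25High stimulated array were added after seeing the data.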

Additional observations from a re-analysis of the deposited data

Results flagged for a closer look

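In 24 groups of 4 pair differences (8 probes, 3 factors), 4 held a pair far from the other 3 by Dixon's criterion, which chance meets in about 1 of 20 groups. For Myc, the knockout minus wild-type difference was -2.90 in stimulated CD25High cells, against -0.34 to -0.09 in the other pairs. The Ncl probe ILMN_2723850 gave the other 3, all of which involve the wild-type CD45High stimulated array. Its stimulation difference was 0.57 in wild-type CD45High cells, against 0.03 to 0.11 in the others. Its CD25High minus CD45High difference was -0.14 in stimulated wild-type cells, against 0.39 to 0.41. Its genotype difference was -0.33 in stimulated CD45High cells, against 0.13 to 0.21. The other Ncl probe, ILMN_2693976, had no such pair.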

How the results depend on the processing

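Over all stimulation pairs the number of called probes of these genes was 0, and 1 under each of 4 alternatives: Npm1 with no background correction (adjusted p = 0.0219), no filter on dim probes (0.0447) or a trended, robust variance (0.0304), and Myc with array weights (0.0476), where 17.8%, 4.52%, 18.1% and 23.2% of all probes were called. With 1 pair left out, limma called 0 to 1 of them over all stimulation pairs, 0 to 3 for stimulation in CD25High and 0 to 1 in CD45High cells, 0 to 2 for the difference between these responses and 0 to 2 for population after stimulation. For genotype the ranges were 0 to 3 in CD25High cells, 0 to 1 at rest, 0 to 3 after stimulation, and 0 to 2 for each of the 2 differences between effects. The calls were of Myc, Ppan, Nolc1 and Nle1, in fits that called 16 to 40.5% of all probes, except that of Nle1 at rest (0.371%). Where a population or state was left with 1 pair, its lone pair was assumed to vary like the others. The count of 30 other assembly genes called higher, with 16% of all probes called, was 23 to 41 with all arrays (4.52 to 23.4% of all probes) and 0 to 34 with 1 pair left out (0 to 22.8%). Fits with no replicate block called 0 probes of these genes and 40 other assembly genes, with 19% of all probes.

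Of 207 values of single probes recomputed with all arrays, 4 were called and 2 changed sign, both for genotype in Nolc1: -0.0298 with cyclic loess and -0.0751 with array weights. Of 96 with 1 pair left out, 1 was called and 7 changed sign, none of them called. Over the left-out pairs the values that changed sign ranged from -0.122 to 0.388 for stimulation in Ppan, from -0.234 to 0.620 for population in Myc and from -0.294 to 0.0637 in Ppan, and for genotype from -0.0737 to 0.165 in Nolc1 and from -0.0169 to 0.160 in the Ncl probe ILMN_2723850. The cause of these changes was not tested. Nolc1, and Myc and Ppan on the knockout CD25High stimulated array, lay near the detection limit, where differences are bounds or, with both arrays undetected, not measured.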
